A study of Mus musculus with 8 samples.

Results

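The brains of male C57Bl/6J mice that had been given trehalose for 10 days were compared with those of mice given it for 1 day. The comparison rested on 3 arrays at each time, 1 array per mouse, of the 8 arrays in the series. The 2 arrays of mice that had received water and were sampled at day 0 added to the estimate of spread but were compared with nothing here. All mice were 9 weeks old and housed 3 to a cage. They were fasted for 6 h, anesthetized and perfused with heparinised buffer before the brain was taken. The labels give the tissue as cerebral cortex and neocortex, while the design text speaks of the left hemisphere. Trehalose dose, cage membership and the meaning of the replicate numbers are not stated in the labels. No mice on water were sampled at 1 or 10 days, so the length of trehalose intake cannot be told apart from the later time of sampling. Members were all probes with a gene symbol that were brighter, on no fewer than 2 arrays, than the blank spots by over 2 SD of these: 19122 of the 23473 probes on the array, for 17863 of 19321 gene symbols.

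Trehalose is a disaccharide built from glucose. In the gut the enzyme trehalase splits it, so little of the intact sugar is thought to reach other organs, and in cultured cells it is best known as an inducer of autophagy, the delivery of cell contents to the lysosome, and as a stabiliser of proteins. The brain lives mainly on glucose and shares with other tissues the hormone axes that respond to feeding, fasting and stress. Levels are given below as log2 intensity after background correction and normalisation, in which values ran from 5.70 to 15.6, and differences as 10 days minus 1 day on the same scale. A difference of 0.32 corresponds to a 1.25-fold and one of 0.58 to a 1.49-fold ratio. An added offset compresses the differences of dim probes.

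Markers of forebrain tissue were present on all 6 arrays. Snap25, a protein of the presynaptic fusion machinery, measured 12.5 to 12.7, Mbp of myelin 12.72 to 13.04, Gad1 of inhibitory neurons 10.8 to 11.3 and Slc17a7, the vesicular glutamate transporter of cortical neurons, 9.33 to 9.48. Markers of structures outside the cortex were bright too. Penk, an opioid peptide gene of the striatum, measured 10.7 to 12.4, Avp, the vasopressin gene of the hypothalamus, 9.49 to 10.3, and Ttr, the transthyretin gene of the choroid plexus, 14.55 to 14.99. Scores on the first principal component, with 25.3% of the variance, overlapped between the times, and 86.8% to 92.1% of probes lay above the blank limit.

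No gene passed the adjusted threshold between the times in the main fit. By limma, 0 of 19122 probes with a symbol (0%) passed an adjusted p of 0.05, the lowest value being 1.0. Before adjustment 675 such probes were under 0.05 (3.53%), 368 higher at 10 days (1.92%) and 307 lower (1.61%). This share rose with brightness: 12 higher and 6 lower among the 4781 dimmest probes, 193 higher and 120 lower among the 4781 brightest. Groups did not overlap for 1629 of 19114 probes (8.52%), with 791 higher (4.14%) and 838 lower (4.38%). Unlike the share under 0.05, this share did not rise with brightness. Without overlap, 219 were higher and 200 lower among the 4781 dimmest probes, and 228 higher and 180 lower among the 4781 brightest. Over all 21583 tested probes, those without a symbol included, the count under 0.05 before adjustment was 756 (3.5%), with 400 higher (1.85%) and 356 lower (1.65%). If no probe differed, a count of 1079 would be expected. The count found was 1197 without 10-day replicate 1, where 633 were lower in place of 356. Without 10-day replicate 3 there were 637 higher in place of 400. With the scanner gain set as a block, described at the end, it was 1485. Under a trended, robust variance model, and again with the mean of the blanks taken off each spot, limma called 1 gene, Il1rl2, which is described with the immune genes.

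The intervals bound what could have been missed on this scale, on which the added offset compresses the differences of dim probes. For dim probes they do not bound the change in RNA. For 91.7% of the probes with a symbol the 95% interval of the difference stayed within 0.32 of 0, and for 99.0% within 0.58, each interval taken by itself. The median interval reached 0.117 to each side. Only 2 probes (0.0105%) differed by at least 0.58 on average, those of the hemoglobin genes Hba-a2 and Hbb-bs, and both varied among mice of the same group. Profiles of the same group were no more alike than profiles of different groups: Pearson correlations across probes were 0.9962 to 0.9968 within 1 day, 0.9941 to 0.9955 within 10 days and 0.9951 to 0.9973 between them. The median SD over 3 arrays was 0.049 at 1 day and 0.061 at 10 days.

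**Figure D1:**
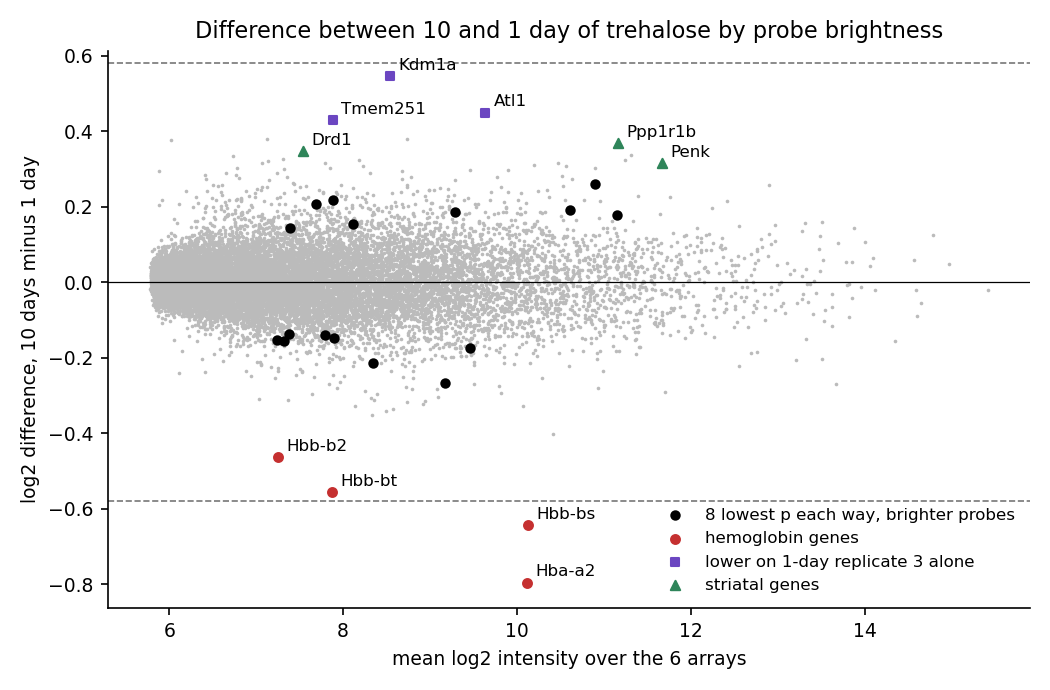
Difference in log2 intensity between 10 and 1 day of trehalose (y axis) against mean log2 intensity over the 6 arrays (x axis) for each of 19122 probes with a symbol; dashed lines mark 0.58 to each side. Black points are the 8 genes with the lowest unadjusted p in each direction among probes brighter than the median, red points hemoglobin genes, purple squares genes low on 1-day replicate 3 alone and green triangles striatal genes. The black points lie between 0.14 and 0.27 from 0. The largest differences include those of hemoglobin genes, striatal genes and genes that were low on a single array.

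Among probes brighter than the median, the 8 with the lowest unadjusted p that were higher at 10 days were genes of several kinds. Htra1, a secreted serine protease, measured 10.75, 10.78 and 10.80 on the 1-day arrays and 10.99, 11.02 and 11.09 on the 10-day arrays, a difference of 0.26 (SE 0.05). Rundc1 measured 7.80, 7.74 and 7.77 against 7.95, 8.03 and 8.00, a difference of 0.22 (SE 0.04, unadjusted p = 5.15e-04). Alkbh8, which modifies the wobble base of transfer RNA, measured 7.56, 7.59 and 7.59 against 7.86, 7.74 and 7.76, a difference of 0.21 (SE 0.04). In each of these 3 genes all arrays at 10 days lay above all arrays at 1 day, and in each the adjusted p was 1.0.

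The other 5 genes of this group had smaller differences. Oip5os1, a long non-coding RNA transcribed opposite the Oip5 gene, differed by 0.19 (SE 0.04) and Mmp17, a membrane-anchored metalloproteinase, by 0.19 (SE 0.03). Rpl30-ps11, annotated as a ribosomal protein pseudogene, differed by 0.18 (SE 0.04); its transcript is a near copy of the parent gene, so what the probe reads is uncertain. Slc35c1, the Golgi transporter of GDP-fucose, stood at 8.04, 8.04 and 8.01 on the 1-day arrays and at 8.19, 8.19 and 8.18 on the 10-day arrays, a difference of 0.16 (SE 0.03). Lrfn3, a synaptic adhesion protein, differed by 0.14 (SE 0.03). None of the 5 overlapped between the groups.

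Of the 8 bright probes with the lowest p that were lower at 10 days, Arih2, a ubiquitin ligase that works with cullin complexes, had the largest difference. Its values were 9.41, 9.27 and 9.22 at 1 day and 9.10, 8.98 and 9.03 at 10 days, a difference of -0.27 (SE 0.06). Tenm3, a teneurin that guides the wiring of neurons, measured 8.41, 8.50 and 8.45 against 8.22, 8.21 and 8.28, a difference of -0.22 (SE 0.04, unadjusted p = 8.17e-04). The groups of both genes lay apart, with every 10-day array below every 1-day array.

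Clk3, a kinase of splicing factors, differed by -0.17 (SE 0.04), but its second probe differed by 0.11 (SE 0.06), so the 2 probes disagreed in sign. Dnali1, a light intermediate chain of ciliary dynein, stood at -0.16 (SE 0.04) and Cops7a, a subunit of the COP9 signalosome, at -0.15 (SE 0.04). Dbx2, a homeobox gene, had a difference of -0.15 (SE 0.04), Pcbd1, which recycles the tetrahydrobiopterin cofactor of monoamine synthesis, one of -0.14 (SE 0.03) and Col8a2, a short-chain collagen, one of -0.14 (SE 0.03). None of these 16 genes was in a pathway or cell type list. All of them kept an unadjusted p under 0.05 when the scanner gain set, described at the end, was fitted as a block. Of all 756 probes under 0.05 without the block, 398 kept such a p. The 16 genes were picked for a low p on these same arrays, so the block does not test them anew. With the local background column subtracted, 5 of them turned sign: Mmp17 at -0.13, Rpl30-ps11 at -0.77, Oip5os1 at -0.44, Lrfn3 at -0.12 and Clk3 at 0.29.

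**Figure D2:**
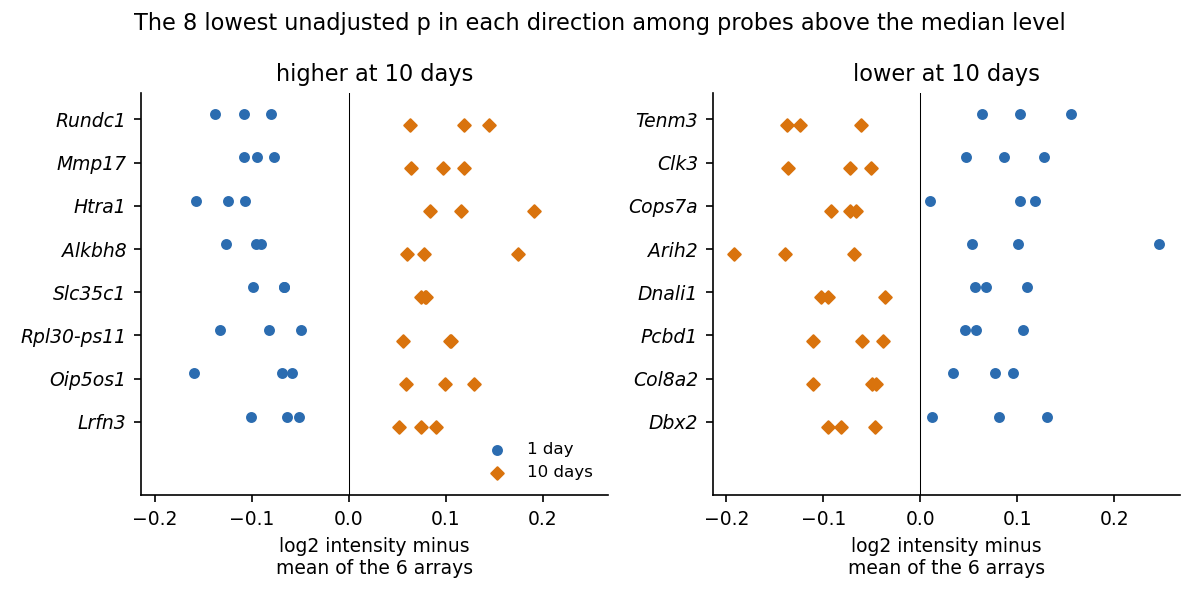
Log2 intensity on each array minus the mean of the 6 arrays (x axis) for the 8 genes with the lowest unadjusted p in each direction (y axis) among probes brighter than the median; circles are 1-day arrays, diamonds 10-day arrays. The groups do not overlap for any of the 16 genes, but these were picked for a low p out of 19122 probes, and 8.52% of those did not overlap.

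The next 5 genes had larger differences and groups that did not overlap; they were chosen after their values were seen and form no list. Prkcb, the beta isoform of protein kinase C, measured 11.31, 11.05 and 11.09 at 1 day and 11.44, 11.54 and 11.48 at 10 days, a difference of 0.34 (SE 0.07). Glul, the glutamine synthetase of astrocytes, measured 10.89, 11.14 and 11.20 against 11.40, 11.42 and 11.38, a difference of 0.32 (SE 0.12). Epha7, an ephrin receptor, measured 7.92, 8.17 and 8.13 against 8.39, 8.40 and 8.36, a difference of 0.31 (SE 0.08). In all 3 genes the 10-day arrays lay close together above scattered 1-day arrays. Alcam, a cell adhesion molecule, had a difference of 0.32 (SE 0.11) with 1-day replicate 2 lowest at 10.09, and Rab1a, a GTPase of traffic from endoplasmic reticulum to Golgi, one of 0.31 (SE 0.11). The astrocyte list, which holds Glul, had 11 probes higher and 12 lower, with a median of -0.0025. Glul was the 1 of its 23 probes at an unadjusted p under 0.05, where 3.53% of all probes with a symbol were.

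Genes of insulin and phosphoinositide signalling held 3 of 25 probes with an unadjusted p under 0.05, all higher at 10 days, where 1.92% of all probes with a symbol were; 0 were lower. They were Pik3ca, the catalytic alpha subunit of phosphoinositide 3-kinase, Pik3r2, a regulatory subunit of the same enzyme, and Gsk3b, a kinase that Akt inhibits. Pik3ca measured 8.05, 8.00 and 7.97 at 1 day and 8.27, 8.23 and 8.10 at 10 days. Its difference was 0.20 (SE 0.05), and its groups did not overlap. Pik3r2 measured 8.20, 8.18 and 8.13 against 8.33, 8.33 and 8.27, a difference of 0.14 (SE 0.04), also without overlap. Gsk3b differed by 0.17 (SE 0.07), with overlapping groups. Over the whole list the median difference was 0.0073, with 15 probes higher and 10 lower. Its median level was 7.86. Of the 4780 probes with a symbol at levels from 6.87 to 8.08, 112 were higher and 112 lower at that p. The list of mTORC1 and AMPK genes had 0 of 28 probes at an unadjusted p under 0.05 and a median difference of 0.0096.

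Genes of membrane excitability and synaptic reception had medians near 0. Of 88 probes for potassium channel subunits, 5 were at an unadjusted p under 0.05 and higher at 10 days and 0 lower, where 1.92% of all probes with a symbol were higher and 1.61% lower; the family median was 0.0013. Kcnd2, which carries the transient A-type current of dendrites, differed by 0.15 (SE 0.05), Kcnj3, a G protein-gated inward rectifier subunit, by 0.15 (SE 0.06) and Kcna1, an axonal channel, by 0.095 (SE 0.038). Calcium channel subunits had 2 of 27 probes at that level, both higher. Cacna2d3, an auxiliary subunit, measured 9.13, 8.84 and 8.99 at 1 day and 9.27, 9.21 and 9.22 at 10 days, and Cacnb1 differed by 0.13 (SE 0.05). The 29 probes of glutamate receptor subunits had 0 at that level and a median of -0.0039.

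Among receptors, Gabrg3, a subunit of the GABA-A receptor, differed by 0.13 (SE 0.04). It was the 1 of 19 GABA receptor probes below 0.05 before adjustment, where 3.53% of all probes with a symbol were. Drd5, a dopamine receptor coupled to the rise of cyclic AMP, measured 6.67, 6.75 and 6.74 at 1 day and 6.62, 6.41 and 6.50 at 10 days, a difference of -0.21 (SE 0.06), while its relatives of the striatum followed 1 mouse, as described below. Olfactory receptor genes, most of them dim on these arrays, were lower in 401 of 696 probes. At an unadjusted p below 0.05, 9 were lower and 0 higher, where 1.61% of all probes with a symbol were lower and 1.92% higher. Groups did not overlap for 50 lower and 17 higher, where the shares of all probes with a symbol were 4.38% and 4.14%. Of 8925 other probes below the median level, 69 were lower and 63 higher at that p. Without overlap, 405 of these other probes were lower and 368 higher. Of the 4781 dimmest probes with a symbol, 470 were olfactory receptors, with 1 lower and 0 higher at that p. Without overlap, 26 of these 470 were lower and 16 higher, against 174 lower and 203 higher of the other 4311. Vomeronasal receptors, also dim, were lower in 69 of 99 probes, with 7 lower and 2 higher without overlap. For the olfactory receptors the median was -0.0067 and the median level 6.02. Olfr401 differed by -0.12 (SE 0.03) and Olfr1406 by -0.15 (SE 0.05). The median of the family kept its direction in 24 of 25 settings and ran from -0.0083 to -0.0054 with 1 array left out; median scaling turned it to 0.0064.

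Genes that handle trehalose and glucose were close to equal at the times. Treh, which encodes trehalase, lay near background at 5.94, 6.00 and 5.91 on the 1-day arrays and 5.92, 5.91 and 5.85 on the 10-day arrays, a difference of -0.055 (95% interval -0.15 to 0.04). Slc2a8, a hexose carrier that in other tissues has been linked to trehalose uptake, differed by -0.037 (-0.12 to 0.05), and Slc2a1, the glucose transporter of the blood-brain barrier and of astrocytes, by 0.057 (-0.24 to 0.36). Of 37 probes for glucose entry and glycolysis, 1 was higher and 1 lower at an unadjusted p under 0.05. Of all probes with a symbol, 1.92% were higher and 1.61% lower. Ldhb, the lactate dehydrogenase subunit that favours the use of lactate, measured 12.80, 12.71 and 12.83 at 1 day and 12.63, 12.52 and 12.63 at 10 days, with no overlap and a difference of -0.19 (SE 0.05). Pdk1, a kinase that restrains pyruvate dehydrogenase, differed by 0.18 (SE 0.07), and its second probe by 0.0036 (SE 0.042).

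Mitochondrial and lipid genes gave similarly small differences. The list of oxidative phosphorylation, with 54 probes, had a median of 0.016. Below 0.05 before adjustment were 2 probes, both higher, where 1.92% of all probes with a symbol were. These were Ndufs4 of complex I, which differed by 0.18 (SE 0.07), and Cox4i1 of complex IV, by 0.16 (SE 0.06). Mrpl3 and Mrpl17, proteins of the mitochondrial ribosome, differed in opposite directions, by -0.15 (SE 0.04) and 0.13 (SE 0.04). In cholesterol and fatty acid synthesis 2 of 33 probes were higher at that level and 0 lower, where 1.92% of all probes with a symbol were higher and 1.61% lower. This list and that of oxidative phosphorylation were bright, with median levels of 8.50 and 11.4. Of the 4781 brightest probes with a symbol, 193 were higher and 120 lower at that p. Fads1, a fatty acid desaturase, measured 10.03, 10.02 and 10.07 at 1 day and 10.20, 10.22 and 10.10 at 10 days, a difference of 0.13 (SE 0.05). Hmgcs1, which makes the precursor of mevalonate, differed by 0.14 (SE 0.05), and its second, brighter probe by 0.021 (SE 0.048).

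Autophagy genes showed no common direction: 26 of 51 probes were higher and 25 lower, the median was 0.0031 and 47 of the 51 intervals lay within 0.32 of 0. Atg13, a subunit of the kinase complex that starts autophagy, measured 9.46, 9.37 and 9.33 at 1 day and 9.28, 9.21 and 9.20 at 10 days, a difference of -0.15 (SE 0.05). Rubcn, an inhibitor of autophagosome maturation, measured 7.77, 7.68 and 7.71 against 7.79, 7.79 and 7.97, a difference of 0.13 (SE 0.06). These were the 2 members at an unadjusted p under 0.05, where 3.53% of all probes with a symbol were. Neither overlapped between the groups, as was so for 8.52% of all probes with a symbol. Sqstm1, the autophagy receptor p62 that is itself degraded in the process, differed by -0.10 (SE 0.08) and Tfeb, the transcription factor of lysosomal genes, by -0.018 (SE 0.050).

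The lysosome list was as evenly split, with 25 of 49 probes higher, 24 lower and a median of 0.0027. Its 2 members at an unadjusted p under 0.05 were both lower, where 1.61% of all probes with a symbol were lower and 1.92% higher. Npc2, which carries cholesterol inside the lysosome, measured 9.72, 9.71 and 9.75 at 1 day and 9.63, 9.62 and 9.60 at 10 days, a difference of -0.11 (SE 0.03), and Gaa, the lysosomal alpha-glucosidase that degrades glycogen, differed by -0.15 (SE 0.05) with overlapping groups. Subunits of the proton pump that acidifies the lysosome went both ways: Atp6v0a1 differed by 0.13 (SE 0.04) and Atp6v1g1 by -0.15 (SE 0.05), each without overlap, and the 22 probes of the family had a median of 0.0037.

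Chaperone genes differed in both directions. Chordc1, a co-chaperone of Hsp90, measured 7.70, 7.73 and 7.87 at 1 day and 7.97, 7.90 and 7.97 at 10 days, a difference of 0.18 (SE 0.05). Hspb6, a small heat shock protein, measured 8.86, 8.76 and 8.77 against 8.66, 8.56 and 8.56, a difference of -0.20 (SE 0.07). They were the 2 of 41 cytosolic chaperone probes with an unadjusted p below 0.05 (3.53% of all probes with a symbol were), 1 in each direction, and neither overlapped. Hspa8, the constitutive Hsp70, differed by 0.044 (SE 0.113) and Hspa1a, the inducible one, by -0.076 (SE 0.103).

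In the endoplasmic reticulum, Pdia6, a protein disulfide isomerase, measured 10.15, 10.16 and 10.08 at 1 day and 10.22, 10.27 and 10.36 at 10 days, a difference of 0.15 (SE 0.04). Eif2ak3, the PERK kinase that senses unfolded proteins there, differed by -0.12 (SE 0.04). The 33 probes of that list had a median of 0.039, with 18 higher and 15 lower, and Hspa5, its main chaperone, differed by 0.088 (SE 0.092). Shmt2, a mitochondrial serine enzyme among the targets of the transcription factor ATF4, measured 7.40, 7.42 and 7.39 at 1 day and 7.50, 7.54 and 7.52 at 10 days, a difference of 0.11 (SE 0.04), whereas the ATF4 list had a median of -0.00023. The antioxidant list was lower in 19 of 27 probes, with a median of -0.040 and 0 at an unadjusted p under 0.05; Keap1, the sensor that holds Nrf2 in check, had its lowest p and a difference of -0.17 (SE 0.08).

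Genes of the stress hormone axis and the clock differed little on average, and the glucocorticoid response list moved with 1 mouse. Crh, the corticotropin-releasing hormone, which cortical interneurons also make, measured 7.22, 7.05 and 7.20 at 1 day and 7.36, 7.39 and 7.26 at 10 days, a difference of 0.18 (SE 0.06), without overlap. Klf9, a transcription factor induced by glucocorticoids, measured 10.16, 10.19 and 10.15 against 10.29, 10.32 and 10.46, a difference of 0.19 (SE 0.05), which became 0.096 when the local deviation on the slide was removed. Sgk1, a kinase induced by the same hormones, measured 9.73, 10.71 and 10.70 at 1 day and 10.21, 10.88 and 10.89 at 10 days. Both times thus held 1 mouse with low Sgk1, and the difference of 0.28 (SE 0.30) became -0.042 without 1-day replicate 1.

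Tsc22d3, another gene of that response, measured 9.71, 10.16 and 9.93 against 9.51, 10.48 and 10.40, and Fkbp5 differed by 0.0092 (SE 0.139). Over the 27 probes of the list 1-day replicate 1 was the lowest array for 14, with a list median of -0.13 from the mean of the 6 arrays, and the list median of the difference, 0.035, turned to -0.017 without that mouse. Among clock genes Arntl, the partner of Clock, measured 8.62, 8.70 and 8.76 at 1 day and 8.76, 8.86 and 8.86 at 10 days, a difference of 0.13 (SE 0.05), and Per1 differed by 0.048 (SE 0.102). The labels do not give the hour of sampling. None of the 33 immediate early gene probes was at an unadjusted p under 0.05, with differences of -0.14 (SE 0.10) for Fos, -0.060 (SE 0.183) for Arc, 0.039 (SE 0.109) for Egr1 and -0.034 (SE 0.031) for Npas4.

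Immune genes included the gene with the lowest unadjusted p once clone names and numbered gene models are left out. Il1rl2, a receptor of the interleukin-36 cytokines, measured 5.80, 5.77 and 5.76 at 1 day and 5.96, 5.98 and 5.99 at 10 days, a difference of 0.20 (SE 0.03, unadjusted p = 1.31e-04 and adjusted p = 1.0). These levels are those of the dimmest probes on the array. It was the gene that limma called under the trended, robust variance model (adjusted p = 0.00405). It was also called when the mean of the blanks was taken off (adjusted p = 4.73e-05), with a difference of 2.37. In that setting a value left below the SD of the blanks was raised to that SD. Whether values of Il1rl2 were among those raised was not tested. The probe was bright enough to be tested in 22 of the 25 settings. Whether it passed the blank limit only through the 10-day arrays, where it was higher, was not tested. Over the other settings that tested it the adjusted p was 0.152 or more. C1qc, a complement gene of microglia, measured 9.00, 8.98 and 8.98 against 9.11, 9.23 and 9.04, a difference of 0.14 (SE 0.06). It was the 1 of 23 microglia probes at an unadjusted p under 0.05, where 3.53% of all probes with a symbol were. Ifit3, induced by interferon, differed by -0.14 (SE 0.05), and Ifitm3 by -0.050 (SE 0.299), an error that includes the spread of the water arrays.

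Several large gene families had medians near 0: -0.013 for cytosolic ribosomal proteins, -0.0053 for histones and 0.0026 for solute carriers. Cytosolic ribosomal protein genes had 3 probes higher and 3 lower at an unadjusted p under 0.05 among 107, and Rpl21-ps6, another annotated pseudogene, differed by -0.14 (SE 0.04). Histone genes had 2 lower and 0 higher among 70, where 1.61% of all probes with a symbol were lower. H3c3 stood at -0.18 (SE 0.05) by 1 probe and 0.074 (SE 0.038) by its other. Solute carriers had 8 higher and 1 lower among 361, where 1.92% of all probes with a symbol were higher, a share near that of the family. Slc35f3 differed by 0.17 (SE 0.05), Slc25a5, a mitochondrial ADP/ATP carrier, by 0.13 (SE 0.04) and Slc25a28, a mitochondrial iron importer, by -0.17 (SE 0.07). Of 18 meninges probes 12 were higher, with a median of 0.043, and 1 was higher and 1 lower at an unadjusted p under 0.05. Fmod, the fibromodulin gene, measured 6.29, 6.18 and 6.24 at 1 day and 6.32, 6.36 and 6.35 at 10 days, a difference of 0.11 (SE 0.04). Dcn, the decorin gene, lay lower: it measured 7.93, 8.30 and 7.99 at 1 day and 7.78, 7.75 and 7.85 at 10 days, a difference of -0.28 (SE 0.09).

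**Figure D3:**
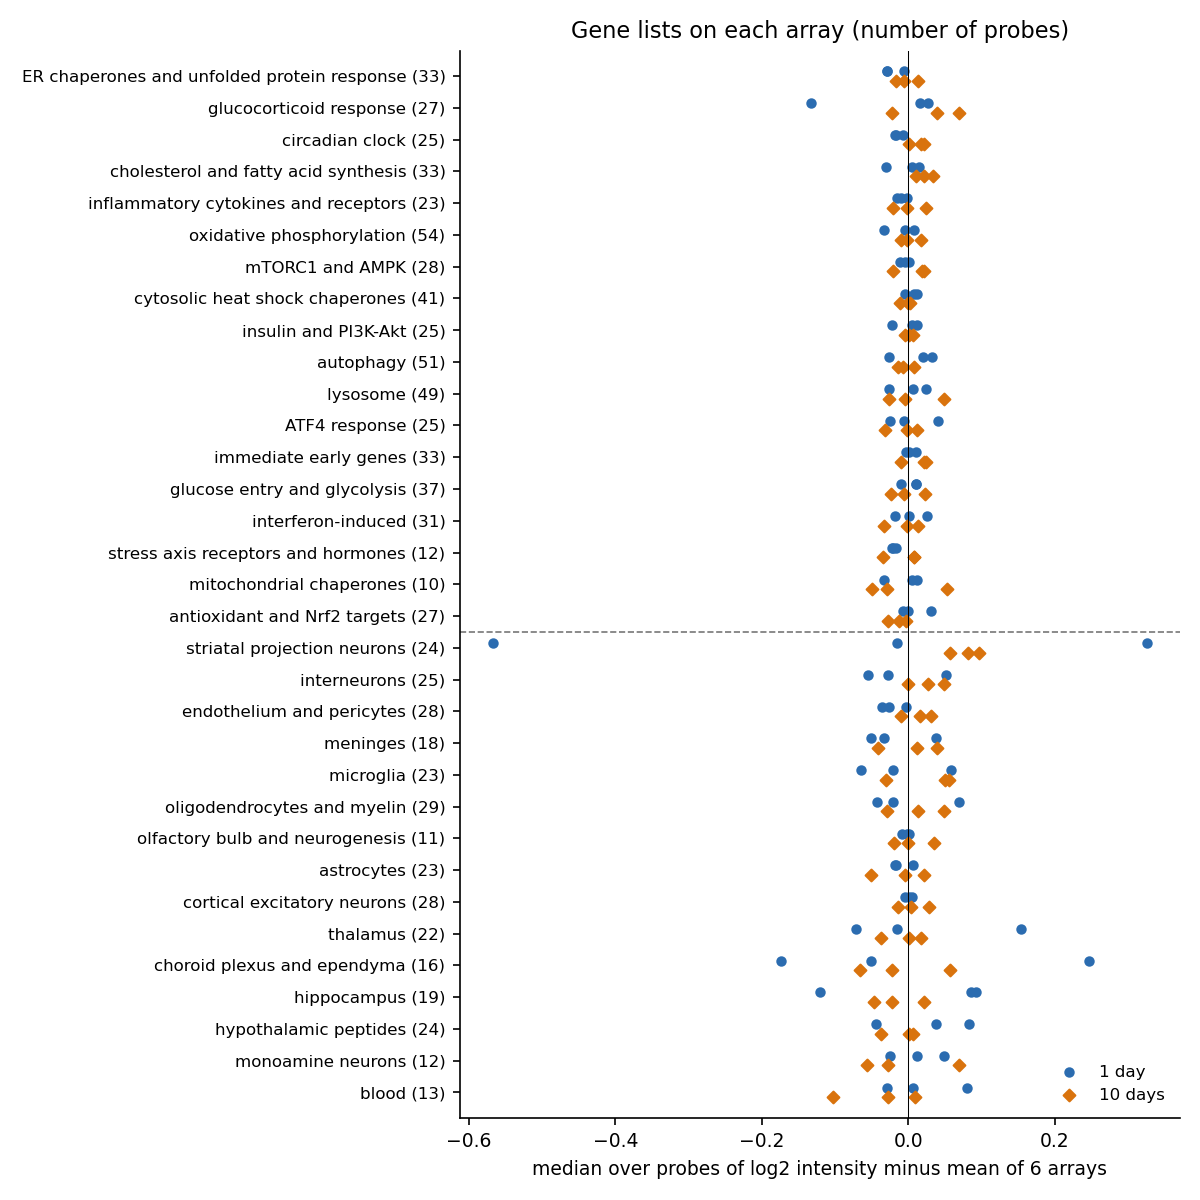
Median over the probes of each of 33 gene lists (y axis, number of probes in brackets) of log2 intensity minus the mean of the 6 arrays (x axis); circles are 1-day arrays, diamonds 10-day arrays, and the dashed line divides pathway lists from cell type and brain region lists. Most lists lie within 0.1 of 0 on every array, while the striatal list spreads from -0.57 to 0.33 among the 1-day mice.

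Genes that belong to structures next to the cortex varied more between mice than between times. Penk measured 12.40, 10.67 and 11.48 at 1 day and 11.79, 11.96 and 11.75 at 10 days. Ppp1r1b, the dopamine-regulated phosphatase inhibitor DARPP-32, measured 11.60, 10.32 and 11.02 against 11.21, 11.48 and 11.35. Drd1, a dopamine receptor of striatal projection neurons, measured 7.83, 6.81 and 7.46 against 7.79, 7.74 and 7.61. In all 3 the 1-day mice spanned both ends of the range, with replicate 1 high and replicate 2 low, and the 10-day mice lay between them.

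The same held across the striatal list: 1-day replicate 2 was the lowest array for 24 of 24 probes, and 1-day replicate 1 the highest for 18. Of these probes 23 were higher at 10 days, with a median of 0.15, but 0 were at an unadjusted p under 0.05 and 0 had groups that did not overlap. Without 1-day replicate 2 the median was -0.058. The median SD of the list was 0.45 at 1 day and 0.076 at 10 days, where over all probes it was 0.050 and 0.062. The mouse with the lowest striatal levels also had the highest array for 15 of 16 choroid plexus and ependyma probes and for 16 of 22 thalamus probes. Hcrt, the orexin gene of the hypothalamus, measured 9.30, 9.68 and 8.67 at 1 day and 9.25, 8.58 and 8.99 at 10 days, Avp 9.97, 10.34 and 9.49 against 9.85, 9.63 and 9.49, and Oxt, the oxytocin gene, 9.12, 9.57 and 8.54 against 8.56, 8.78 and 8.91. The amount of each structure in a dissection and the level of its RNA cannot be told apart in bulk tissue.

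Hemoglobin genes had the largest average differences of all and the widest spread. They encode the alpha and beta chains of the oxygen carrier of red cells, and the mice had been perfused. The 3 adult globin genes Hba-a2, Hbb-bs and Hbb-bt moved together from mouse to mouse, and Hba-a2 lies on another chromosome than Hbb-bs and Hbb-bt. Whether their promoters bear on this was not tested. The first 100 bases upstream of their annotated starts are shown. They are taken from RefSeq on GRCm38.p6: Hba-a2 at chr11:32296392-32296491 on the plus strand, Hbb-bs at chr7:103827929-103828028 and Hbb-bt at chr7:103813924-103814023, both on the minus strand. Capitals mark 3 motifs of globin promoters on either strand. One is the CCAAT box, another the box with the letters CACCC, and the last a TATA box with the letters ATATAA.
Hba-a2: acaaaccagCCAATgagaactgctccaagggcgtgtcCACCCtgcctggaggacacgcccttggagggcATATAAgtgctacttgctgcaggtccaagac
Hbb-bs: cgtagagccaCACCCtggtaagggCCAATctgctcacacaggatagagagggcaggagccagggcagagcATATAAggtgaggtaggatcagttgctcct
Hbb-bt: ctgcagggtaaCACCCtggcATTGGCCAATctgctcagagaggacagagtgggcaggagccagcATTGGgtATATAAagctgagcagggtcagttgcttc

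Each of the 3 sequences held 1 CACCC, and each 1 ATATAA, which began 31, 30 and 29 bases before the start. The CCAAT motif was found once in Hba-a2 and Hbb-bs and at 3 places in Hbb-bt, where a pair of matches on opposite strands adjoin. Over the same 100 bases of 32544 promoters, CCAAT was found on either strand in 18.8%, CACCC in 27.3% and ATATAA in 3.75%. AGATAA, a core of GATA factor sites, was found in 3.61% of them and in none of the 3 sequences.

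Hba-a2 measured 11.27, 10.53 and 9.74 at 1 day and 11.48, 8.13 and 9.55 at 10 days. Hbb-bs measured 11.01, 10.35 and 9.98 against 11.10, 8.76 and 9.55, and Hbb-bt 8.64, 8.18 and 7.63 against 8.94, 6.49 and 7.35. All 3 were highest on 10-day replicate 1 and lowest on 10-day replicate 2, so the 10-day mice spanned the whole range. The difference was -0.80 (SE 0.85) for Hba-a2 and -0.64 (SE 0.61) for Hbb-bs. The probe annotated as Hbb-b2 differed by -0.46 (SE 0.60), while the embryonic chains Hba-x and Hbb-y were at background, between 5.81 and 5.97. Near-identical copies of these genes make it uncertain which one a probe reads. The median of the 7 hemoglobin probes was -0.46 and became -0.0033 without 10-day replicate 2. How much blood was left after perfusion was not tested.

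Another set of genes that varied between mice was noticed in the data, and the list of liver and urinary protein genes was drawn up after their values had been seen. Mup2, a major urinary protein, measured 5.87, 6.08 and 7.64 at 1 day and 5.87, 7.57 and 6.52 at 10 days, and Mup19 6.31, 6.45 and 7.76 against 6.28, 7.94 and 6.64. Alb, the albumin gene, measured 6.00, 6.17 and 7.09 against 6.09, 7.11 and 6.28. In all 3 genes the same 2 arrays, 1-day replicate 3 and 10-day replicate 2, stood above the others. These arrays were the highest pair for 15 of 26 probes of the list. The differences between the times were small beside this, 0.13 (SE 0.71) for Mup2 and 0.075 for Alb. Mup genes are near copies of each other, so their probes cannot be assigned to one of them.

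**Figure D4:**
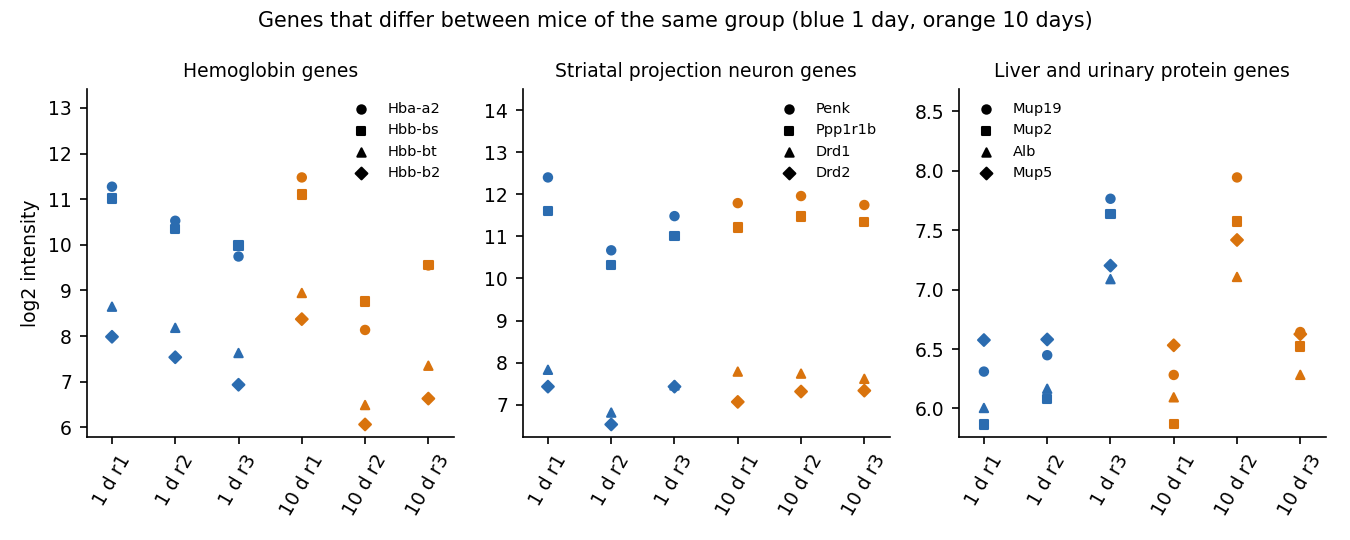
Log2 intensity (y axis) on each array (x axis; 1 d and 10 d are the times, r1 to r3 the replicates) of hemoglobin, striatal, and liver and urinary protein genes, with a symbol for each gene. Hemoglobin genes are lowest on 10-day replicate 2, striatal genes on 1-day replicate 2, and liver and urinary protein genes are high on 1-day replicate 3 and 10-day replicate 2.

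The X-linked Xlr3 genes, a multicopy family, also scattered among 10-day mice. Xlr3c measured 7.89, 7.74 and 7.83 at 1 day and 7.37, 7.58 and 8.05 at 10 days, a difference of -0.16 (SE 0.16), and Xlr3a 7.41, 7.22 and 7.15 against 6.94, 6.94 and 7.53. The 10-day values lay on both sides of the 1-day values. Sult4a1, a brain sulfotransferase, measured 9.70, 9.78 and 9.68 at 1 day and 9.82, 9.94 and 9.85 at 10 days, which do not overlap. Its difference of 0.15 has an SE of 0.41, since the fit includes the water arrays, which measured 9.69 and 7.74.

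Many of the largest average differences came from 1 array. A probe was said to stand apart when 1 array deviated by over 0.5 from the median of the other 5 while those 5 spanned under 0.45. With clone names and numbered gene models left out, this was so for 14 of the 20 probes with the largest positive difference and for 10 of the 20 with the largest negative one. The genes named next were chosen after their values were seen. Kdm1a, a histone demethylase, had the largest positive difference, 0.55 (SE 0.37), and measured 7.25 on 1-day replicate 3 against 8.73 to 8.90 on the other 5 arrays. Atl1, a GTPase that shapes the endoplasmic reticulum, measured 8.48 on the same array against 9.80 to 9.95, and Tmem251 6.83 against 8.00 to 8.22. Srgap3, a regulator of neurite branching, measured 9.58 on 10-day replicate 2 against 10.48 to 10.70, and Sesn1, a stress-inducible regulator of mTORC1, 7.58 against 8.59 to 8.80. Tsc2, an inhibitor of mTORC1 signalling, measured 7.84 on 10-day replicate 3 against 8.67 to 8.79.

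The spots behind these values lay close together on the slide. Kdm1a, Atl1 and Tmem251 were printed in block 6, columns 59 to 60, and Srgap3 and Sesn1 in block 4, column 54. Tsc2 and Slbp, a histone mRNA binding protein that measured 7.78 on 10-day replicate 3 against 8.44 to 8.56, were in block 19, columns 47 to 49. Over the 6 arrays 260 probes stood apart on 1 of them, 145 of them on 10-day replicate 3, where 118 were higher and 27 lower. Over all 6 arrays 145 stood higher and 115 lower. On 1-day replicate 3, 54.8% of such probes had another within 3 columns and rows of the same block, where 3.44% of all probes had one. The shares were 33.3% against 2.01% on 10-day replicate 1, 38.5% against 2.95% on replicate 2 and 44.1% against 17.5% on replicate 3. On 1-day replicate 2 they were 6.67% against 4.47%, and on 1-day replicate 1, where 10 probes stood apart, 0% against 1.48%. The striatal probes that were low on 1-day replicate 2 lay in 14 blocks of the slide.

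**Figure D5:**
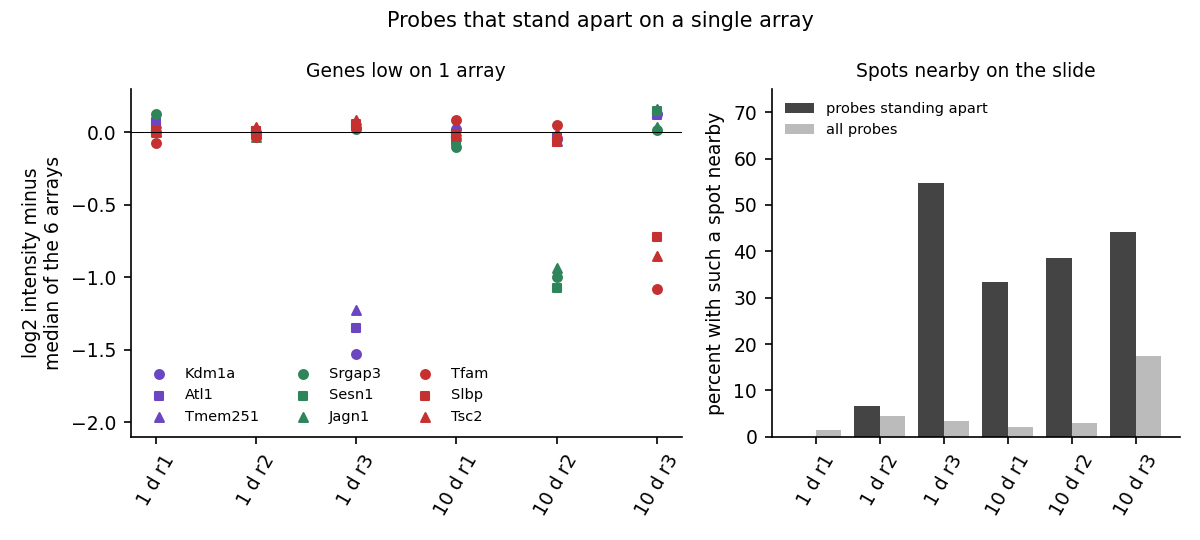
Left, log2 intensity minus the median of the 6 arrays (y axis) of 9 genes that were low on 1 array (x axis); right, percent of the probes that stood apart on each array that had another such spot within 3 columns and rows (dark bars), beside the same share for all probes (light bars). Each set of 3 genes is low on a single array, and on 4 of the 6 arrays the dark bar is over 2 times the light one.

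The scanner files fell into 2 sets by the slopes of the lines that join their gains. All 3 1-day arrays and 10-day replicate 2 had a slope of 0.235 to 0.237 for the highest gain, and 10-day replicates 1 and 3 had 0.244 to 0.245. The sets are thus partly confounded with the times, and no 1-day array lay in the second. With the set as a block 0 probes passed an adjusted p of 0.05 (smallest 0.654), and 1485 of 21583 were at an unadjusted p under 0.05 (6.88%), 398 of them among the 756 found without it.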

How the data were processed

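RNA from 8 mouse brains was measured on 1-colour oligonucleotide arrays, 1 array per mouse. The deposited scanner files hold the intensity of each spot (median of its pixels) on a linear scale, with no background subtracted and scans at 3 gains joined, per the file headers. The deposited value table holds linear intensity that the authors had already processed; how is not stated. Its log2 values were used as an alternative. In limma 3.58.1 (R 4.3.3) the intensities were corrected by normexp with an offset of 50, quantile normalized and averaged by probe. Probes above the blank mean plus 2 SD on at least 2 arrays were kept, 21583 in all. Spots with a flag, 10 in all, were left out. All 8 arrays entered 1 limma fit with 3 groups (5 residual degrees of freedom), with Benjamini-Hochberg adjustment over all 21583 probes and a threshold of 0.05. Symbols came from the platform annotation; 1179 symbols had over 1 probe, each reported by itself.

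Named genes were the 8 lowest unadjusted p in each direction among probes above the median level, up to 2 of lowest p per list or family, and a fixed panel; clone names and numbered gene models were counted, not named. Members and lists were chosen with earlier results of these data known. The fit was tested on simulated data. Alternatives varied the background, scaling, filter, variance model, blocks and arrays left out. The p-values set the difference between the times against the spread between mice within groups, the water group included. The number of arrays limits the precision. Same-numbered arrays had correlated deviations of 0.222, -0.0247 and 0.12, and the labels do not say that a number marks a shared cage or day, so arrays were not paired.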

Additional observations from a re-analysis of the deposited data

How the results depend on the processing

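No probe passed the threshold in limma under any setting except blank mean subtraction and trend and robust variances, with 1 each (Il1rl2). Against 756 probes at an unadjusted p under 0.05 (400 higher, 356 lower), the replicate block gave 1138, with 600 lower, and 0 past the threshold; only replicate 1 of the 1-day arrays correlated best with the 10-day array of its own number. Median scaling gave 242 higher. The local background column, which follows the spots (correlation 0.943 to 0.985), gave 1595, with 679 higher and 916 lower, and 2832 probes without overlap. The gain set as a block, chosen after seeing the data, gave 1485, with 753 higher and 732 lower. The arrays of the larger gain set alone, 3 against 1, gave 1252, with 709 higher and 543 lower; there 10809 did not overlap, since fewer arrays overlap less. With 1 array left out the count ran from 640 to 1197, higher from 307 to 637, lower from 329 to 633 and without overlap from 1803 to 4614. Lists and families with a median of at least 0.1 from 0 numbered 2 (striatal genes and hemoglobins), 8 after blank mean subtraction, 9 in the deposited values and 1 without 1-day or 10-day replicate 2, each of which removes the mouse that the list rested on.

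Some differences changed sign. With the local background column they were -0.13 for Mmp17, -0.77 for Rpl30-ps11, -0.44 for Oip5os1, -0.12 for Lrfn3, 0.29 for Clk3, -0.038 for Glul, -0.17 for Kcnd2, -0.30 for Hmgcs1, 0.42 for Slc2a8, -0.025 for Rubcn, -0.091 for Pdia6, -0.0043 for Klf9, 0.51 for Fos, -0.15 for Mrpl17, 0.031 for Slc25a28 and 1.01 for Hcrt; the cause was not tested. Slc2a8 became 0.0055 with the gain set as a block and 0.0075 in the larger set, where Tfam became 0.076. With 1 array left out, Atl1 ran from -0.015 to 0.69, Sesn1 from -0.58 to 0.031 and Tfam from -0.49 to 0.094, with the sign turned where the array on which it stood apart was the one left out. Dim probes near the blank level are compressed, so a small change in them was not detectable.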
